A study of Mus musculus with 6 samples.

Results

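Arginine is taken up by macrophages, made again from citrulline, turned into nitric oxide or split into ornithine and urea, and 8 genes of these steps were followed in macrophages exposed to cartilage fragments. They were Gm5424, Ass1, Asl, Nos2, Arg1, Arg2, Slc7a2 and Odc1, taken as the rows that carry these names among the 24394 gene symbols of the files. The choice was made with the comparison of the 2 groups known, and Gm5424 was put with Ass1 because its row may hold reads of Ass1. The levels of the 8 genes and the differences between groups are therefore given as a description, without p-values. The count of them past a threshold is given once, beside the share of all genes, and nothing is read from it.

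Bone marrow-derived macrophages (BMMs) of C57BL/6 mice at postnatal day 28 were grown for 7 days with 50 ng/ml of M-CSF, the growth factor that drives marrow cells to macrophages, and their mRNA was sequenced. The 3 control cultures received no cartilage, and the 3 others received cartilage fragments, prepared from femoral heads of the same mice, at 5 fragments per macrophage for 24 h. The labels number the cultures 1 to 3 in each group without saying whether they came from separate animals, so every p-value measures the spread between these libraries, which may be technical. The mRNA is from the whole culture, in which fewer cells of a type and less RNA per cell cannot be told apart.

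The values are FPKM, fragment numbers corrected for transcript length and for the mapped fragments of each library. The files correspond to an estimated 742691 to 776248 fragments per control library and 699099 to 754012 per cartilage library, and the fragments estimated for single rows summed to 653872 to 732834 per library. The study's methods give far more reads per sample, and the reason for this gap was not found in the files. Fragment numbers, counting intervals and limits of detection below all rest on the estimate, under which a gene of a few FPKM has a few fragments. The 7 macrophage markers were present in all libraries, with Csf1r, the receptor of M-CSF, at 565 to 670 FPKM. Of 14 chondrocyte markers, 10 were listed at 0 in all 6 libraries, and the sum of the list was 1.15 to 3.28 FPKM in control and 0.985 to 1.59 FPKM in cartilage libraries. The 5 lymphocyte and 4 erythroid markers were listed at 0 throughout, and 1 of 4 dendritic cell markers was. The study's methods give male mice, whereas Xist was at 19.8 to 23.6 FPKM and Ddx3y, Eif2s3y, Kdm5d and Uty were listed at 0 in the 6 libraries.

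Arginine enters cells through cationic amino acid transporters, among them the product of Slc7a2, which activated macrophages use. Inducible nitric oxide synthase (Nos2) converts it to nitric oxide and citrulline, while the arginases (Arg1 in the cytosol, Arg2 in mitochondria) convert it to ornithine and urea, and ornithine decarboxylase (Odc1) opens the route from ornithine to polyamines. Citrulline is recycled by argininosuccinate synthase (Ass1), which joins it to aspartate, and by argininosuccinate lyase (Asl), which releases arginine and fumarate. Nos2 and Arg1 are classic markers of macrophages stimulated by microbial products with interferon gamma and by interleukin 4, respectively.

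Gm5424 is an intronless copy of Ass1, and the annotation and the files placed it differently. RefSeq, on GRCm38.p6, annotated Gm5424 as a transcribed pseudogene at chr10:62071022-62072571 and Ass1 as a protein-coding gene at chr2:31470270-31520670. In the files, which use mm10, the Gm5424 row (NR_002687) lay at chr2:31470308-31520629, inside the Ass1 row (NM_007494) at chr2:31470270-31520670. It had a length of 1552 bases over a span of 50322 bases, so introns were spanned at that place. Both rows shared 1 Cufflinks gene id in each library, and 0 rows of any library overlapped the RefSeq position of Gm5424. Of 33543 reference transcripts matched to RefSeq by accession, 113 (0.337%) lay on another chromosome in the files, and 20 of these were pseudogenes.

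The copies were compared with each other in GENCODE M21 transcripts (GRCm38), because their likeness decides which reads could be told apart. All 1239 coding bases of Ass1, stop codon included, aligned to Gm5424 with 0 gaps, and 1233 of them (99.5%) were identical. The 6 differing bases were spread so that 622 of 1140 windows of 100 bases (54.6%) held no difference, and no window held more than 2. A window has the length of 1 read, while the reads were paired and the fragments estimated at 206 to 224 bp. A fragment thus spans more bases than a window, and the share of fragments free of differences was not computed. The longest identical run was 398 bases. All 13 junctions inside the coding sequence of Ass1 fell within the alignment, where Gm5424 ran on without a gap. The parts of the transcripts outside the coding bases were not compared.

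**Figure D1:**
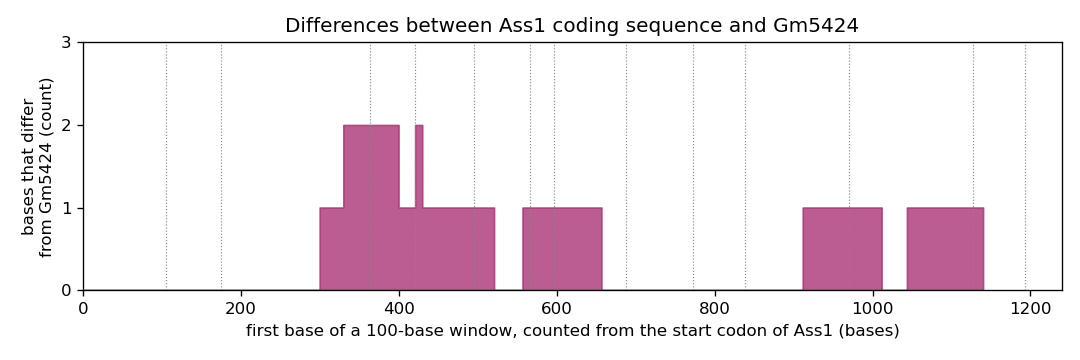
Number of bases that differ between the coding sequence of Ass1 and Gm5424 in each window of 100 bases, plotted at the first base of the window; dotted lines mark the 13 exon junctions of Ass1. No window holds more than 2 differences, and 622 of 1140 windows hold none.

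The row named Gm5424 was higher in all 3 cartilage libraries. It stood at 30.9, 27.8 and 29.2 FPKM in control replicates 1 to 3 and at 111, 89.5 and 103 FPKM in cartilage replicates 1 to 3. The groups were far from overlapping, with means of 29.3 ± 1.52 and 101 ± 10.8 FPKM (SD, n = 3 each), a ratio of 3.45. On the log2(FPKM + 0.1) scale the difference was 1.78 (95% interval 1.48 to 2.08, SE 0.13). An estimated 90 fragments in the control libraries and 295 in the cartilage libraries lay behind it, and their ratio per fragment sequenced was 3.43 (exact binomial 95% interval 2.70 to 4.39, counting error only). Cufflinks gave the row the status LOWDATA in 5 of 6 libraries, all 3 cartilage libraries among them, and OK in control replicate 1. In that library 0 rows had a status other than OK, against 770 to 795 in each of the others, so its OK is not particular to this row. Gm5424 is absent from the study's list of changed genes, which rests on the study's own test, and so are Ass1 and Arg1. Why that list lacks Gm5424 was not tested.

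The Ass1 row, the protein-coding gene at the same place, was listed at 0 in all 6 libraries. The upper bounds that Cufflinks gave these zeros were 1.82 to 2.03 FPKM, and 3 fragments, the number that a count of 0 allows, would be 2.71 to 3.05 FPKM. Neither value limits the level of Ass1 mRNA, because the fragments at this locus were assigned to the Gm5424 row. At this locus the row of the pseudogene therefore carried every FPKM assigned to a named gene in control and cartilage libraries alike. The sum of both rows equals the Gm5424 row, and whether its fragments came from Ass1 or from the copy on chromosome 10 was not tested, since reads were not analysed here.

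**Figure D2:**
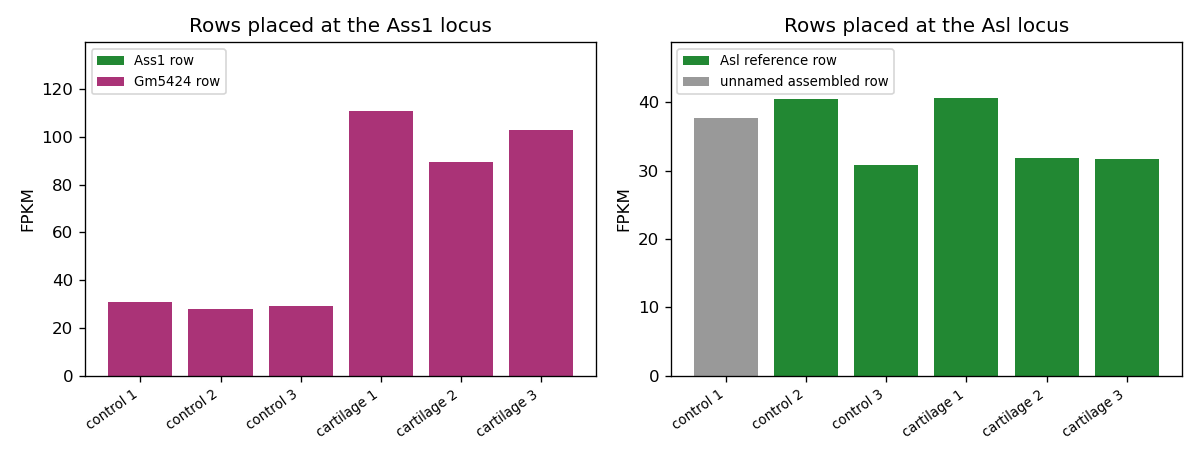
FPKM of the rows placed at the Ass1 locus (left) and at the Asl locus (right) in each library, 1 bar per library split by row. The Ass1 row is at 0 in all 6 libraries and the Gm5424 row takes 27.8 to 111 FPKM, while Asl sits in its reference row in 5 libraries and in an unnamed assembled row in control replicate 1.

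Asl, the next enzyme of citrulline recycling (NM_133768, chr5:130011503-130024331), stayed at a similar level in both groups. It stood at 37.7, 40.5 and 30.8 FPKM in control replicates 1 to 3 and at 40.6, 31.8 and 31.7 FPKM in cartilage replicates 1 to 3. The groups overlapped, with means of 36.3 ± 4.99 and 34.7 ± 5.14 FPKM (SD, n = 3 each), and the log2 difference was -0.07 (95% interval -0.46 to 0.33, SE 0.17). The value of control replicate 1 came whole from an unnamed transcript of 1689 bases that Cufflinks assembled in that library under the gene id of Asl, while the reference row was listed at 0 there. Without assembled transcripts the control mean was 23.7 ± 21.1 FPKM (SD, n = 3) and the log2 difference 2.79, so the apparent level of Asl in control replicate 1 rests on how assembled transcripts are summed.

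The Gm5424 row was below Asl in the control libraries and above it in the cartilage libraries. The ratio of Gm5424 to Asl FPKM was 0.820, 0.688 and 0.950 in control replicates 1 to 3 and 2.73, 2.82 and 3.25 in cartilage replicates 1 to 3. The means were 0.819 ± 0.131 and 2.93 ± 0.282 (SD, n = 3 each), and the ranges did not overlap.

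Nos2 (NM_010927, chr11:78920859-78960124), the enzyme that consumes arginine for nitric oxide and returns citrulline, was listed at 0 in every library, and the bounds that Cufflinks gave were also 0. With 3990 bases of transcript, 3 fragments would be 1.02 to 1.14 FPKM, so under the estimated depth a lower level of Nos2 could have gone unseen in any single library. At the greater depth that the methods give, the limit would be lower. No fold between the groups can be given for Nos2 or Ass1, and neither was among the genes tested.

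Arg1 (NM_007482, chr10:24915207-24927470), the cytosolic arginase, was low, and seen mainly with cartilage fragments. It was listed at 0, 0 and 2.14 FPKM in control replicates 1 to 3 and stood at 7.40, 4.41 and 9.10 FPKM in cartilage replicates 1 to 3, so the groups did not overlap. These values rest on an estimated 0, 0 and 2 fragments in control and on 7.1, 4 and 8 in cartilage libraries. The totals of 2 and 19 fragments gave a ratio of 9.94 per fragment sequenced with an exact binomial 95% interval of 2.40 to 88.0, for counting error only. The fitted log2 difference of 4.59 (95% interval 1.73 to 7.45, SE 1.24) depended on the value added before the logarithm, with 2.40 at 1 FPKM and 6.80 at 0.01 FPKM in place of 0.1. It was 6.08 without control replicate 3, the only control library with Arg1 fragments, and 3.84 without control replicate 1 or 2. Arg1 reached the mean of 1 FPKM needed for the fit only through the cartilage libraries, where its mean was 6.97 ± 2.38 FPKM against 0.712 ± 1.23 FPKM in control (SD, n = 3 each).

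Arg2 (NM_009705, chr12:79130788-79156301), the mitochondrial arginase, was the more abundant of the arginases in all 6 libraries. It stood at 22.5, 25.4 and 10.1 FPKM in control replicates 1 to 3 and at 27.8, 25.3 and 22.7 FPKM in cartilage replicates 1 to 3. Control replicate 3 was the low library, and the others overlapped. The means were 19.3 ± 8.15 and 25.2 ± 2.53 FPKM (SD, n = 3 each) and the log2 difference was 0.49 (95% interval -0.28 to 1.25, SE 0.33). Without control replicate 3 it was 0.07. The end of Arg2 overlaps that of Vti1b in the annotation, and how fragments in the overlap were assigned is not given in the sources used here.

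The share of Arg1 in the summed FPKM of both arginases was 0%, 0% and 17.5% in control replicates 1 to 3 and 21.1%, 14.9% and 28.6% in cartilage replicates 1 to 3. The ranges overlapped, because control replicate 3 had the only Arg1 fragments of its group and the lowest Arg2.

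Slc7a2, the transporter, was the lowest of the detected genes with cartilage fragments. Its rows (NM_001044740 and NM_007514, chr8:40862367-40922070) summed to 2.77, 2.49 and 2.17 FPKM in control replicates 1 to 3 and to 1.78, 3.16 and 2.31 FPKM in cartilage replicates 1 to 3. The cartilage libraries held both the lowest and the highest value, and the groups overlapped. The means were 2.48 ± 0.299 and 2.42 ± 0.696 FPKM (SD, n = 3 each), with a log2 difference of -0.06 (95% interval -0.99 to 0.87, SE 0.40). Its transcripts differ by 3 bases in length (7720 and 7717), and Cufflinks gave all FPKM to 1 of them in control replicate 1 and in cartilage replicate 3, so the split between them was not read.

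Odc1 (NM_013614, chr12:17544873-17551502), the first enzyme of polyamine synthesis, varied more within groups than between them. It stood at 10.5, 5.14 and 8.12 FPKM in control replicates 1 to 3 and at 10.3, 5.98 and 10.5 FPKM in cartilage replicates 1 to 3. Replicate 2 was the lowest of both groups, and the ranges overlapped almost fully. The means were 7.94 ± 2.71 and 8.93 ± 2.56 FPKM (SD, n = 3 each) and the log2 difference was 0.18 (95% interval -0.60 to 0.97, SE 0.34).

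**Figure D3:**
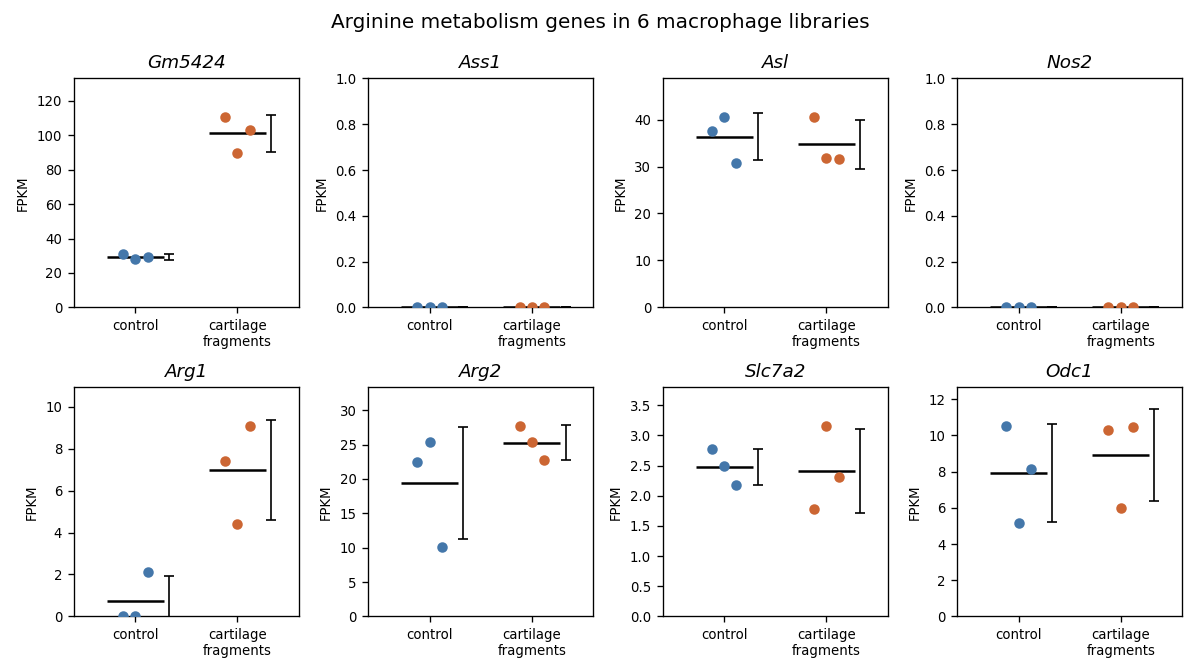
FPKM of the 8 genes in each library, 1 panel per gene on its own linear axis from 0; points are libraries, the black line is the mean and the bracket beside it 1 SD to either side (n = 3). Gm5424 and Arg1 have cartilage libraries that all lie above the control libraries, Asl, Arg2, Slc7a2 and Odc1 overlap, and Ass1 and Nos2 lie at 0.

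FPKM is scaled to transcript length, so levels can be ordered between the genes. In control libraries the order of mean FPKM was Asl, Gm5424, Arg2, Odc1, Slc7a2 and Arg1. Asl and Gm5424 did not differ beyond the range of their libraries there, and neither did Arg2 and Odc1. With cartilage fragments the order was Gm5424, Asl, Arg2, Odc1, Arg1 and Slc7a2, in which Odc1 and Arg1 alone overlapped as neighbours. The row at the Ass1 locus and that of Arg1 each moved up 1 place, and the other genes kept their order among themselves.

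Across all genes, 10393 had a mean of at least 1 FPKM and were fitted with limma. Of these, 38 (0.366%) passed an adjusted p of 0.05, with 32 (0.308%) higher and 6 (0.0577%) lower with cartilage fragments. Of the 8 genes, 6 were fitted, 1 was past that threshold in the higher direction (Gm5424) and 0 in the lower. By unadjusted p under 0.05, 2 of the 6 were called, against 9.19% of all fitted genes. Groups that did not overlap were seen for 2 of the 6, Gm5424 and Arg1, both higher, against 9.04% of all fitted genes in that direction, 6.89% in the lower and 15.9% in either. The median log2 difference of the 6 was 0.33 and that of all fitted genes 0.00. These counts hold only the genes that reached 1 FPKM, which Arg1 did only through the cartilage libraries. They describe genes chosen on this comparison, and nothing is read from them.

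Adgre1, the macrophage marker F4/80, had a log2 difference of 0.59 (SE 0.06, limma adjusted p = 0.00965), and Csf1r one of 0.01 (SE 0.08, adjusted p = 0.987). The summed fibroblast markers did not overlap between the groups, at 155 to 169 FPKM in control and 103 to 119 FPKM in cartilage libraries. Among them Col1a1 had a log2 difference of -0.72 (adjusted p = 0.0849), Col1a2 of -0.41 (adjusted p = 0.290), Col3a1 of -0.70 (adjusted p = 0.718) and Dcn of 0.28 (adjusted p = 0.893). The study, by its own test, lists Adgre1 as upregulated and Col1a1 and Col1a2 as downregulated. The summed neutrophil markers overlapped, at 829 to 953 FPKM in control and 758 to 1130 FPKM in cartilage libraries, and none of S100a8, S100a9, Ltf, Camp, Ngp, Cxcr2 and Retnlg passed the threshold (lowest adjusted p = 0.706, for S100a8). The part of these cells in the difference of the Gm5424 row was not tested.

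The pattern of the Gm5424 row over the 6 libraries was compared with that of 7559 genes of at least 5 FPKM, as a description, with all points sharing their libraries. The highest Pearson r of log2 values were those of Ugt1a6b (0.997), Actg1 (0.996), Plek (0.993), Il1b (0.992) and Cfb (0.990), and 195 genes were above 0.9. Ugt1a6b, a glucuronosyltransferase, was listed at 0 in the 3 control libraries and at 36.0 ± 14.4 FPKM with cartilage fragments. Whether these values reflect how Cufflinks assigned fragments among rows of the Ugt1a6b locus was not tested. Cfb, complement factor B, was at 2.26 ± 0.754 and 34.7 ± 7.58 FPKM. Ugt1a6b, Cfb and Il1b reached the mean of 5 FPKM needed here only through the cartilage libraries. That filter favours a high r with a row that is higher in those libraries, so nothing is read from their r. Plek, the platelet and leukocyte protein pleckstrin, was at 93.1 ± 3.46 and 129 ± 2.98 FPKM, and Actg1, a cytoplasmic actin, at 777 ± 17.5 and 984 ± 25.2 FPKM (SD, n = 3 each). Among the other arginine genes r with Gm5424 was 0.84 for Arg1, 0.49 for Arg2, 0.32 for Odc1, -0.15 for Asl and -0.21 for Slc7a2. These r hold the difference between the groups, and those of the deviations from the group means were other: 0.73 for Ugt1a6b, 0.88 for Actg1, 0.63 for Plek, -0.47 for Il1b and 0.52 for Cfb. Among the arginine genes they were 0.13 for Arg1, 0.01 for Arg2, 0.87 for Odc1, 0.41 for Asl and -0.75 for Slc7a2.

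To see the 8 genes in their pathway, 94 further genes of the arginine network were listed by role, and 78 of them were fitted. The lists were drawn up with earlier results of these data known, so the counts below are a description. Of the 78, 1 passed the threshold in the higher direction (Il1b) and 0 in the lower, against 0.308% and 0.0577% of all fitted genes. By unadjusted p under 0.05, 11 of the 78 were called, against 9.19% of all fitted genes. With fragments in place of FPKM limma called 4 higher (Il1b, Tnf, Hif1a and Tlr2) and 1 lower (Sat1), against 1.52% and 0.779% of all fitted genes. All 4 called higher were from the list of regulators. The study lists Tnf, Hif1a and Tlr2 as upregulated and Sat1 as downregulated, and it does not list Il1b. Its list comes from the same libraries and gives no independent support. Point estimates were higher for 45 and lower for 33, with a median log2 difference of 0.05, and 16 of the 78 (20.5%) had groups without overlap, 11 higher and 5 lower, against 15.9%, 9.04% and 6.89% of all fitted genes.

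Il1b, the cytokine interleukin 1 beta, which can induce Nos2, was at 2.38 ± 0.0534 FPKM in control and 15.0 ± 0.544 FPKM with cartilage fragments (SD, n = 3 each). Under the estimated depth this control level rests on a few fragments per library, so its small SD may understate the spread. Il1b had a log2 difference of 2.60 (SE 0.22, limma adjusted p = 0.00283), which takes in that SD. The adjusted p was 0.00257 to 0.0401 over the 16 alternatives, and every cartilage library lay above every control library. The study states instead that IL-1β did not rise with cartilage fragments, and its list of changed genes lacks Il1b. Why the 2 readings differ was not tested. Of the 17 regulators of Nos2, Arg1 and Odc1 that were fitted, 11 had higher and 6 lower point estimates, and Myc, the transcription factor known to drive Odc1, had the lowest, -1.18 (SE 1.30, adjusted p = 0.817). Tnf, the cytokine that acts beside interleukin 1, was at 13.2 ± 0.781 and 47.8 ± 18.9 FPKM, with a limma adjusted p of 0.0818 on FPKM and of 7.0e-05 on fragments. The study, by its own test, lists Tnf as upregulated. Irf1, a factor of the interferon response, had a log2 difference of 0.04 (SE 0.15, adjusted p = 0.955). Stat6, which carries the response to interleukin 4 to Arg1, had one of -0.20 (SE 0.12, adjusted p = 0.681).

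Of the import and exchange genes 8 of 11 were fitted, and 0 passed in either direction. Slc7a1, the housekeeping arginine transporter, had the highest log2 difference, 0.78 (SE 0.57, adjusted p = 0.726), between 1.22 and 2.26 FPKM, and Slc25a15, the mitochondrial ornithine carrier, the lowest, -0.02 (adjusted p = 0.997). The 4 fitted genes for tetrahydrobiopterin, the cofactor of nitric oxide synthases, all had higher point estimates, and 0 passed. Gch1, its rate-limiting enzyme, was at 6.93 ± 1.03 and 9.45 ± 1.60 FPKM (SD, n = 3 each) without overlap, with a log2 difference of 0.44 (SE 0.24, adjusted p = 0.627), and Pts was at the other end with 0.03 (adjusted p = 0.993). The other urea cycle enzymes and nitric oxide synthases (Cps1, Otc, Nags, Nos1 and Nos3) were listed at 0 in all 6 libraries.

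Downstream of the arginases, 15 of 19 polyamine genes were fitted, with 7 higher and 8 lower point estimates and 0 past the threshold. Dhps, which modifies eIF5A with spermidine, had the highest difference, 0.44 (adjusted p = 0.700), and Mtap, which salvages methylthioadenosine, the lowest, -0.56 (adjusted p = 0.622). Sat1, which acetylates polyamines, had a log2 difference of -0.19 (adjusted p = 0.653) on FPKM and of -0.36 (adjusted p = 0.0177) on fragments. Of 9 fitted genes between ornithine, proline and glutamate, 5 had higher and 4 lower point estimates and 0 passed. Prodh, proline dehydrogenase, was at 1.63 (SE 1.22, adjusted p = 0.735), and Pycrl, a reductase of proline synthesis, at -0.72 (SE 0.23, adjusted p = 0.372), with 9.29 and 5.66 FPKM and no overlap.

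Amd1, the S-adenosylmethionine decarboxylase of polyamine synthesis, showed the arrangement seen for Ass1. In the files the row of Amd2 lay at chr10:40287465-40302186, inside that of Amd1 at chr10:40287458-40302188, and both shared 1 gene id, while RefSeq put Amd2 at chr10:35708691-35711891. The Amd1 row was listed at 0 in all 6 libraries. The Amd2 row was at 17.8, 27.7 and 27.2 FPKM in control replicates 1 to 3 and at 26.5, 36.5 and 30.4 FPKM in cartilage replicates 1 to 3, with overlap, and its log2 difference was 0.37 (SE 0.22, adjusted p = 0.656). The pair was looked up after its values were seen.

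Among users of arginine outside these routes, 8 methylation genes were fitted, with 4 higher and 4 lower point estimates, from Prmt7, an arginine methyltransferase, at 0.95 (SE 0.34, adjusted p = 0.423, no overlap) to Prmt3 at -0.49 (adjusted p = 0.584). Of the 4 creatine genes Gamt, which methylates guanidinoacetate to creatine, was at 11.4 and 20.2 FPKM without overlap, with a difference of 0.85 (SE 0.29, adjusted p = 0.419), and Slc6a8, the creatine transporter, was the lowest at -0.48 (adjusted p = 0.543), at 48.1 and 33.7 FPKM without overlap. With reference transcripts alone Slc6a8 was at -0.02. The 13 genes of aspartate supply and the amino acid response ran from Mthfd2 at 0.69 (adjusted p = 0.600) to Chac1 at -1.30 (SE 1.31, adjusted p = 0.806), and Atf4, the factor that switches this response on, was at 0.11 (SE 0.13, adjusted p = 0.829). No gene of these lists passed the threshold on FPKM or on fragments. The 16 network genes that were not fitted had means of at most 0.862 FPKM, and 11 of them were listed at 0 in all 6 libraries.

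**Figure D4:**
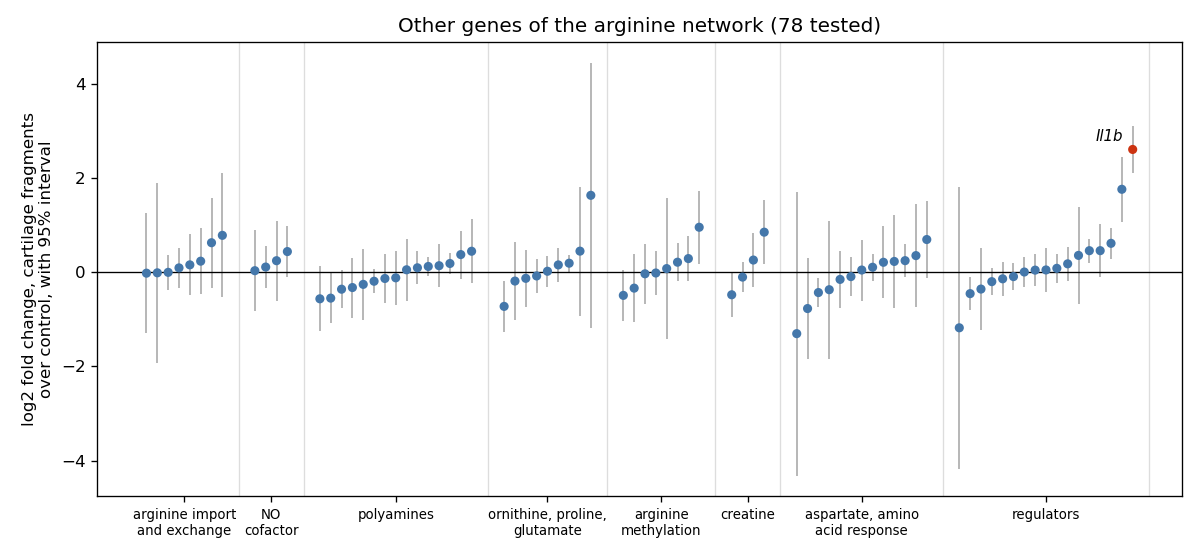
log2 difference between cartilage and control libraries for the 78 fitted genes of the arginine network, ordered within each list; points are estimates from limma on log2(FPKM + 0.1) and bars their 95% intervals. Il1b, in red, is the gene past an adjusted p of 0.05, and the points of each list lie on both sides of 0, apart from the 4 for the NO cofactor, which lie above it.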

How the data were processed

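RNA-seq libraries of 3 control and 3 cartilage-exposed BMM cultures were used. The authors sequenced paired-end 100-bp reads of stranded mRNA libraries, used TopHat and Bowtie for alignment to mm10 and Cufflinks for each library, and versions are not given in the sources used here. The deposited FPKM are listed per transcript, for 34535 reference transcripts and 1453 to 1654 assembled ones per library, and the deposited coverage is the mean read depth beside each FPKM. The values hold no counts.

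FPKM were summed per gene symbol, and unnamed assembled transcripts were added where their gene id held 1 symbol. Fragments were estimated as coverage times effective length over read length, with the fragment length (206 to 224 bp) that made most values whole, and 94.9% to 95.6% of values up to 8 fragments came within 0.1 of a whole number. Starts were raised by 1 to count from 1. The fit used limma 3.58.1 (R 4.3.3, eBayes with trend and robust, two-sided, Benjamini-Hochberg adjustment, threshold 0.05) on log2(FPKM + 0.1) of genes averaging 1 FPKM or more. The procedure was also run on simulated counts. These held no assembled or reassigned transcripts, so that run says nothing about rows such as those of Gm5424 and Asl. With 3 against 3 libraries an exact permutation test of a single value cannot go below 0.1, so none was run. Alternatives changed the pseudocount, filter, scaling, transcripts summed, unit and replicate block, joined Gm5424 to Ass1 or left out each library. Ass1 and Gm5424 transcripts of GENCODE M21 were aligned with Biopython 1.88.

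The 8 genes, the network lists and the markers were chosen with earlier results of these data known. Named were the 8 genes, network genes past the threshold, the largest rise and fall per list, the 5 patterns most like Gm5424, and markers of other cell types of at least 1 FPKM. Tnf, Hif1a, Tlr2, Sat1, Irf1, Stat6, Atf4, Amd1, Amd2, the macrophage markers and the genes of the sex check were named outside this rule, after their values were seen. The sequences of the aligned stretches and 1 network gene are not reported here.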

Additional observations from a re-analysis of the deposited data

How the results depend on the processing

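The log2 difference of the Gm5424 row was 1.71 to 1.86 over 16 alternatives, as a description of a gene chosen on this comparison. Asl turned positive with reference transcripts alone (2.79) and without control replicate 2 (0.02), Slc7a2 without control replicate 1 (0.02) and without cartilage replicate 1 (0.13), and Odc1 turned negative without control replicate 2 (-0.10). The counts over all genes, 32 higher and 6 lower, were 15 higher with reference transcripts alone, and 158 higher and 81 lower with fragments in place of FPKM, where 5 network genes were called in place of 1. With the replicate block limma called 17 higher and 1 lower. The labels do not say whether the numbers pair the libraries. Same-numbered libraries had correlations of -0.093, 0.067 and 0.030 between their deviations from the group means, and other pairs had -0.146 to 0.107. With 3 libraries per group and few fragments per gene, these values cannot decide whether the libraries were paired. Leaving out 1 library gave 9 to 27 higher, 0 to 6 lower and 1 to 2 network genes. The counts moved by more than 1.5 times without control replicate 1 (19 higher and 3 lower), control replicate 2 (3 lower), control replicate 3 (3 lower), cartilage replicate 1 (9 higher and 0 lower), cartilage replicate 2 (15 higher) and cartilage replicate 3 (2 network genes). The other counts were within 1.5 times of these. At 3 fragments a transcript the size of Nos2 is at 1.02 to 1.14 FPKM, if the estimated depth holds, so lower levels of Nos2 could have gone unseen in any single library. Changes of Arg1 and Slc7a2 smaller than their intervals were beyond this depth.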
